A study of Homo sapiens with 12 samples.

Results

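The DNA replication machinery is the set of proteins that copies the genome in S phase, and 52 of its genes were followed in MCF10A cells with and without p53. The genes were a fixed list in 9 roles: origin recognition, licensing, the MCM2-7 helicase, origin firing, polymerases and primase, the sliding clamp and its loader, DNA binding and Okazaki fragment maturation, nucleotide supply, and chromatin assembly. All 52 were found by symbol among the 22324 genes of the deposited expression table, and all 52 were among the 12215 genes expressed highly enough to be tested.

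Replication starts in G1, when the origin recognition complex, CDC6 and CDT1 load the MCM2-7 helicase onto DNA. In S phase the kinase CDC7-DBF4 helps to turn loaded MCM2-7 into the active helicase with CDC45 and GINS, polymerases copy the strands behind it, and the clamp PCNA holds them on DNA. Many genes of the machinery are transcribed around the G1/S transition under E2F transcription factors, and p53 restrains this transition through CDKN1A, which encodes the cyclin-dependent kinase inhibitor p21.

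RNA-seq was run on MCF10A, an immortalized, non-tumorigenic human mammary epithelial line, in 12 libraries. The p53 KO clones KO313 (n = 4) and KO414 (n = 4) were made by CRISPR-Cas9, each with its own pair of guide RNAs and a sort for co-transfected EGFP, and each grew from 1 edited cell. The WT group (n = 4) was parental MCF10A. All groups were of low passage and grew in the same medium with horse serum, insulin, EGF, hydrocortisone and cholera toxin. In the methods of the study the 4 samples per genotype are named biological repeats. The 8 p53 KO libraries stand for 2 clones, so p-values speak for these clones, and loss of p53 cannot be told apart from editing and cloning of the cells.

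The deposited unit is RPKM, the reads of a gene per length of its transcript and per size of the library. The library totals used as divisor were inferred from the steps between low values and not summed over genes. They came to 39.295 to 39.343 M per library, so the libraries were apparently brought to 1 depth and the reads sequenced are unknown. With these totals each member value goes back to a whole number, and the smallest of these was 956. CDKN1A, a target of p53, was 25.4 to 35.6 RPKM in the 8 p53 KO libraries, against 228 to 272 in WT. All 11 epithelial markers, most of them basal and with EPCAM and CDH1 among them, were detected in every library. Their sums were 2188 to 2501 RPKM in p53 KO and 2687 to 3122 in WT. Most of each sum came from KRT5 (882 to 1128 RPKM in p53 KO, 1255 to 1470 in WT) and KRT6A (579 to 737 in p53 KO, 704 to 917 in WT). Of these markers 6 fell in p53 KO, by the most KRT17 (0.284 of the WT mean, Benjamini-Hochberg adjusted p = 8.2e-10 by limma over all genes tested). The markers that rose were 4, by the most LAMB3 (1.81-fold, adjusted p = 8.1e-06, limma). Over all genes tested, 14.0% were called lower and 15.6% higher. Of 16 markers of fibroblasts, immune, endothelial and hormone-responsive cells, 12 were below 0.5 RPKM in every p53 KO library and 12 in every WT library. Their summed level was 5.64 to 7.05 RPKM in p53 KO and 5.75 to 6.51 in WT, and LUM and PGR were listed at 0 throughout p53 KO, against CD3E, CDH5 and PGR throughout WT. Of the 16 markers, CD14 rose, at 1.11 to 2.07 RPKM in p53 KO and 0.851 to 1.05 in WT (adjusted p = 0.00149, limma). The part of these markers in the results of the machinery was not tested.

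The first question was how the machinery as a whole differed between p53 KO and WT cells. In p53 KO, 27 of the 52 genes rose, 2 fell (PCNA and TYMS) and 23 did not pass the test. The test was limma on log2(RPKM + 0.5), with a Benjamini-Hochberg adjusted p under 0.05 over all genes tested. Over all 12215 genes, 15.6% were called higher and 14.0% lower. The rises were small. They spanned 1.11-fold (CHAF1B) to 1.44-fold (TK1) as ratios of group means, and no member reached a fold of 2. Of all genes, 1.47% were called with a fold of 2 on the log2(RPKM + 0.5) scale (180 genes, or 273 with a pseudocount of 0.1). The median difference of the members was 0.18 on the log2 scale, against 0.01 for all genes tested, and 45 of the 52 lay above 0. In 19 members all 8 p53 KO libraries were above every WT library, and in 2 all were below, where 9.25% and 9.74% of all genes were. Whether more cells were in S phase or each cell held more of these RNAs cannot be told apart in bulk libraries.

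**Figure D1:**
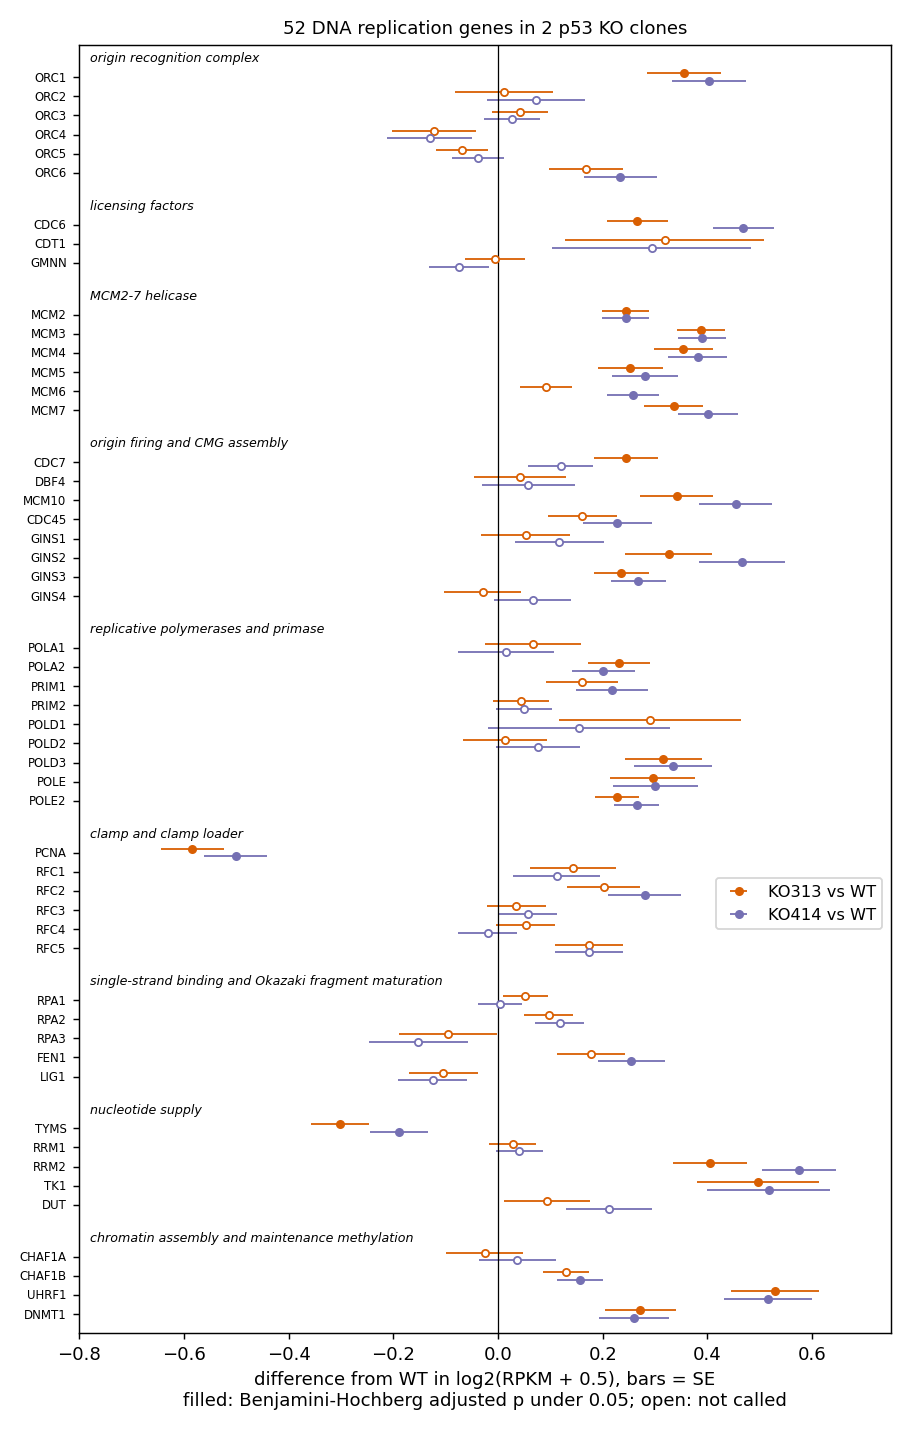
Difference of each clone from WT in log2(RPKM + 0.5) with its SE (x axis), for the 52 genes grouped by role (y axis). KO313 is orange and KO414 purple, and filled points passed the test. All filled points except PCNA and TYMS lie to the right of 0.

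**Figure D2:**
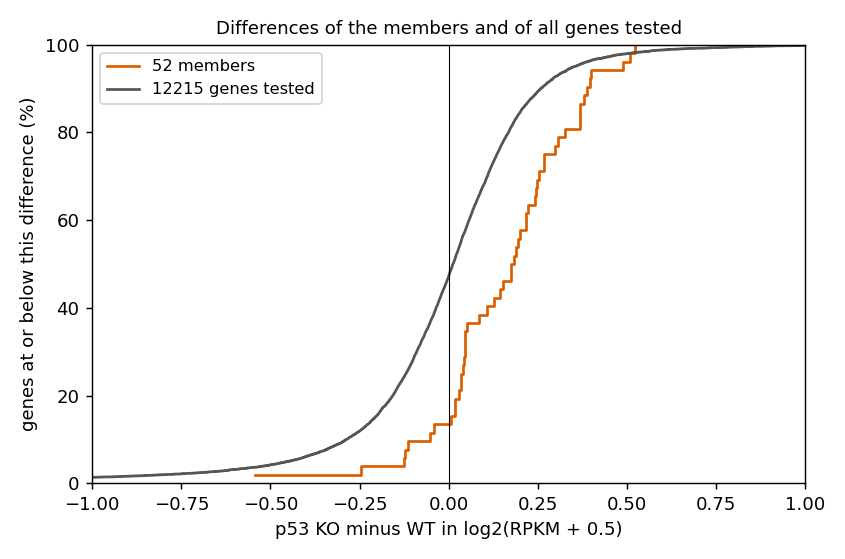
Share of genes (y axis, %) at or below each p53 KO minus WT difference in log2(RPKM + 0.5) (x axis), for the 52 members (orange) and the 12215 genes tested (grey). At or below 0 lie 13.5% of the members and 47.2% of all genes, and 189 genes beyond a difference of 1 in either direction are off the axis.

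The promoters of the genes were searched for the E2F-type motif TTTNNCGC on both strands, in the window from 250 bases before to 50 after the transcription start that RefSeq gives (GRCh38.p14, 1 start per gene). A promoter was at hand for 46 of the 52 members. The motif was in 23 of these 46 (50.0%), in 6.90% of all 27305 promoters and in 10.7% of the 9040 promoters of genes tested here. Among members that rose, 14 of 24 promoters held it, and among the other members 9 of 22. Of the 1473 promoters of all genes called higher, 11.9% held it. ORC1, MCM10, RRM2 and TK1 were among the members that rose without a match. A match to these letters is a description of the sequence and not a binding site, and binding was not measured here. The 190 bases before the start are shown for MCM3 and UHRF1, 2 genes that rose and hold the motif, and for the 2 that fell. They run 5′ to 3′ on the strand of the gene, with each match that lies wholly inside them in capitals.
MCM3 promoter: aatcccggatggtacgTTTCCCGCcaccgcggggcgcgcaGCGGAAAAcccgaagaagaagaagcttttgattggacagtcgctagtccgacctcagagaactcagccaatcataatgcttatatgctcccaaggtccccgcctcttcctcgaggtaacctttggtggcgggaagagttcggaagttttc
UHRF1 promoter: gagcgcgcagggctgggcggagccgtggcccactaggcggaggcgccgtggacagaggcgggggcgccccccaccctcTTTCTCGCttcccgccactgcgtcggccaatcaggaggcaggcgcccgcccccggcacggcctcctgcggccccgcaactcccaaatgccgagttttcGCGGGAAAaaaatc
PCNA promoter: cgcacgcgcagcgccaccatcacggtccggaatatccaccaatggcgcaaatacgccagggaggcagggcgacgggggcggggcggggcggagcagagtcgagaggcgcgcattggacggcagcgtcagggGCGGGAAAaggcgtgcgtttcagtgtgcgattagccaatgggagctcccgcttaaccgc
TYMS promoter: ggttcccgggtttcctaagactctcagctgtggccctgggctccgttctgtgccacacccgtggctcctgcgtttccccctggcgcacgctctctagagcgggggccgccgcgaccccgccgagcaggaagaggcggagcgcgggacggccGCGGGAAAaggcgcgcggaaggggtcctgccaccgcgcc
These stretches lie at chr6:52284743-52284932 (minus strand), chr19:4909311-4909500 (plus strand), chr20:5126623-5126812 (minus strand) and chr18:657463-657652 (plus strand). MCM3 and UHRF1 each show 2 matches, and PCNA and TYMS 1 each, so the motif was present before genes that moved in opposite directions.

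Origins are marked by the 6 subunits of the origin recognition complex, of which ORC1 and ORC6 rose in p53 KO and ORC2, ORC3, ORC4 and ORC5 did not pass. ORC1, an ATPase subunit whose level follows the cell cycle, had 11.8, 13.9, 13.4 and 14.1 RPKM in KO313 and 12.2, 14.0, 14.4 and 14.4 in KO414, against 10.2, 10.8, 10.5 and 9.59 in WT. Every p53 KO library was above the WT libraries, by 1.32-fold in the means (log2 difference 0.38 ± 0.06 SE, adjusted p = 0.000380, limma). ORC6 had 22.2, 22.1, 23.6 and 24.4 RPKM in KO313 and 25.9, 21.5, 25.5 and 24.0 in KO414, against 21.3, 18.2, 20.9 and 21.7 in WT. Its groups overlapped at 1 KO414 library, the difference was 0.20 ± 0.06 SE (adjusted p = 0.0240, limma), and without WT replicate 2 the adjusted p was 0.0999. ORC4, another ATPase subunit, was 9.02, 8.19, 8.75 and 9.65 RPKM in KO313 and 7.56, 9.46, 9.59 and 8.88 in KO414, against 10.8, 8.92, 9.64 and 9.64 in WT. These groups overlapped (difference -0.13 ± 0.07 SE, adjusted p = 0.182, limma). ORC2, ORC3 and ORC5 overlapped too, with differences of 0.04, 0.03 and -0.05. In WT the complex ran in mean level from 9.74 RPKM for ORC4 to 20.5 for ORC6, and ORC1 was the second lowest subunit.

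Licensing needs CDC6 and CDT1, and geminin (GMNN) blocks CDT1 after G1. Of these CDC6 rose in p53 KO, and CDT1 and GMNN did not pass. CDC6, the ATPase that joins the origin recognition complex to load MCM2-7, had 40.1, 46.9, 46.3 and 47.3 RPKM in KO313 and 49.0, 52.2, 55.6 and 51.1 in KO414, against 38.4, 36.5, 37.0 and 37.6 in WT. All p53 KO libraries were above WT, and the KO414 libraries were above the KO313 libraries (p53 KO against WT 1.30-fold, 0.37 ± 0.07 SE on the log2 scale, adjusted p = 0.00128, limma). CDT1, the partner of CDC6, had 15.4, 9.69, 9.84 and 10.9 RPKM in KO313 and 16.1, 7.84, 10.9 and 10.8 in KO414, against 10.3, 8.75, 7.50 and 9.31 in WT. The libraries with replicate number 1 were the highest of their group, and the other p53 KO libraries lay within or just above the WT range. The difference of 0.31 ± 0.16 SE did not pass (adjusted p = 0.170, limma), nor did the difference of 0.21 without the 3 libraries of number 1 (adjusted p = 0.129, limma, chosen after seeing the data). With the replicate number as a block it passed (0.31, adjusted p = 0.0262, limma). GMNN had 43.0, 42.1, 43.1 and 40.7 RPKM in KO313 and 45.0, 39.0, 39.0 and 38.4 in KO414, against 40.1, 41.7, 42.9 and 45.1 in WT. The groups overlapped, with a difference of -0.04 ± 0.05 SE (adjusted p = 0.593, limma).

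The MCM2-7 ring, the motor of the replicative helicase, was the only role in which every member rose. Its 6 subunits summed to 293 to 319 RPKM in p53 KO libraries and 238 to 249 in WT libraries. MCM3 had 63.1, 69.8, 70.2 and 70.3 RPKM in KO313 and 67.3, 69.3, 69.3 and 67.7 in KO414, against 51.0, 52.7, 54.4 and 50.3 in WT. All p53 KO libraries were clear of the WT range, KO313 replicate 1 being the nearest to it (1.31-fold, 0.39 ± 0.04 SE on the log2 scale, adjusted p = 5.9e-06, limma). MCM4 had 54.4, 57.2, 54.3 and 56.7 RPKM in KO313 and 50.5, 58.3, 58.9 and 59.6 in KO414, against 45.5, 43.8, 41.2 and 43.3 in WT. Again no p53 KO library reached down to WT (1.29-fold, 0.37 ± 0.05 SE, adjusted p = 7.2e-05, limma). MCM7, the subunit with the highest level, had 78.1, 86.6, 88.3 and 88.0 RPKM in KO313 and 90.7, 84.9, 89.3 and 91.8 in KO414, against 66.2, 68.5, 72.5 and 62.6 in WT. It too did not overlap (1.29-fold, 0.37 ± 0.05 SE, adjusted p = 1.0e-04, limma). MCM2 (1.19-fold) and MCM5 (1.21-fold) rose without overlap, and MCM6 (1.13-fold, adjusted p = 0.0349, limma) rose with libraries of KO313 inside the WT range. In KO313 taken by itself MCM6 did not pass (0.09, adjusted p = 0.226, limma). The subunits of the ring were unequal in WT, from 25.0 RPKM for MCM5 to 67.5 for MCM7, and MCM7, MCM3 and MCM4 were the highest in p53 KO as well as in WT. These 3 also had the largest differences of the ring.

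Origin firing turns the loaded ring into the active CMG helicase, and 5 of the 8 members in this role rose (MCM10, GINS2, GINS3, CDC45 and CDC7). MCM10, which helps to activate the helicase, had a lowest value of 13.2, a median of 14.6 and a highest of 16.7 RPKM in p53 KO, against 11.6, 11.3, 10.3 and 11.2 RPKM in WT. The groups did not overlap (1.33-fold, 0.40 ± 0.06 SE, adjusted p = 0.000441, limma). GINS2, a subunit of the GINS tetramer, had 42.1, 42.3, 49.5 and 44.5 RPKM in KO313 and 54.0, 45.0, 50.0 and 47.7 in KO414, against 31.0, 35.6, 40.4 and 35.2 in WT. Every p53 KO library was above WT, by the least in KO313 replicate 1 (1.32-fold, 0.40 ± 0.08 SE, adjusted p = 0.00165, limma). GINS3 had a lowest value of 13.6, a median of 15.0 and a highest of 16.2 RPKM in p53 KO, against 12.2, 12.1, 12.9 and 12.9 RPKM in WT, also without overlap (1.20-fold, 0.25 ± 0.04 SE, adjusted p = 0.000929, limma). GINS1 and GINS4 did not pass (differences of 0.09 and 0.02), and the subunits were not tested against each other. In WT, GINS2 at 35.5 RPKM was above GINS4, GINS1 and GINS3, which lay between 12.5 and 16.3. CDC45 (difference 0.19) and the kinase gene CDC7 (0.18) rose with overlapping libraries, whereas DBF4, the activating subunit of CDC7, did not pass (0.05).

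Among the 9 members for replicative polymerases and primase, 5 rose (POLE2, POLD3, POLE, POLA2 and PRIM1), and all 9 differences were above 0. POLE2, the second subunit of the leading-strand polymerase epsilon, had 8.44, 8.40, 8.84 and 8.64 RPKM in KO313 and 8.54, 9.04, 8.83 and 8.87 in KO414, against 7.05, 7.14, 7.40 and 7.43 in WT. Its libraries were tight and did not overlap (1.20-fold, 0.25 ± 0.04 SE, adjusted p = 0.000277, limma). POLE, the catalytic subunit, had a lowest value of 8.57, a median of 10.3 and a highest of 11.2 RPKM in p53 KO, against 8.05, 8.72, 8.73 and 7.15 RPKM in WT. Of the p53 KO libraries, only KO414 replicate 1 lay inside the WT range (1.24-fold, 0.30 ± 0.07 SE, adjusted p = 0.00494, limma). POLD3, an accessory subunit of the lagging-strand polymerase delta, had a lowest value of 11.5, a median of 13.7 and a highest of 14.7 RPKM in p53 KO, against 10.1, 10.9, 10.7 and 10.4 RPKM in WT. These did not overlap (1.27-fold, 0.33 ± 0.06 SE, adjusted p = 0.00153, limma).

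The other subunits of polymerase delta did not pass. POLD1, the catalytic subunit, had 13.2, 8.59, 9.20 and 9.71 RPKM in KO313 and 13.2, 6.84, 8.18 and 9.21 in KO414, against 9.58, 7.80, 7.21 and 8.02 in WT. As for CDT1, the libraries of number 1 were the highest in each group, and the difference of 0.22 ± 0.15 SE did not pass (adjusted p = 0.286, limma). The coefficient of variation of POLD1 was 20.3% in KO313, 29.1% in KO414 and 12.4% in WT, and that of CDT1 was 23.5%, 30.1% and 13.2%, where the median member had 5.61%, 7.21% and 4.93%. The libraries of number 1 were also the highest of all 3 groups for MCM2, CHAF1A and UHRF1, and whether these libraries differ in preparation was not tested. POLD2 did not pass (0.04). In the polymerase alpha-primase complex, which lays the RNA-DNA primers, the accessory subunit POLA2 (0.22) and the primase subunit PRIM1 (0.19) rose. The catalytic POLA1 (0.04) and the primase subunit PRIM2 (0.05) did not pass. By RPKM both were at the bottom of the whole machinery in WT, at 6.48 and 6.98. Such ranks depend on the division by length. POLA1 (9831 bases) had whole numbers of 1985 to 2810 per library, where POLE2 (3448 bases) had 956 to 1226.

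The gene of the clamp fell, and 2 of the 5 genes of its loader rose. PCNA, the ring that tethers polymerases to DNA and also serves DNA repair, is a known transcriptional target of p53 and had the largest difference of any member. It had 169, 185, 188 and 193 RPKM in KO313 and 213, 191, 196 and 178 in KO414, against 278, 267, 273 and 283 in WT. Every p53 KO library was far below every WT library, and the mean fell to 189 ± 13.1 RPKM in p53 KO (SD, n = 8), against 275 ± 6.59 in WT (SD, n = 4). The ratio of means was 0.687, and the log2 difference was -0.54 ± 0.05 SE (adjusted p = 5.6e-06, limma). Of the 5 subunits of the loader RFC, which opens the clamp, RFC2 and RFC5 rose and RFC1, RFC3 and RFC4 did not pass. RFC2 had a lowest value of 33.1, a median of 38.4 and a highest of 43.8 RPKM in p53 KO, against 33.6, 30.0, 32.5 and 32.9 RPKM in WT. Only KO313 replicate 1 lay within the WT range (1.19-fold, 0.24 ± 0.06 SE, adjusted p = 0.00906, limma). RFC5 had a lowest value of 21.4, a median of 24.9 and a highest of 26.4 RPKM in p53 KO, against 21.8, 20.8, 22.1 and 21.6 RPKM in WT. Its call depended on single libraries (difference 0.17 ± 0.05 SE, adjusted p = 0.0277, limma), and the adjusted p was 0.0503 without KO414 replicate 4, 0.0591 without WT replicate 1, 0.0860 without WT replicate 2 and 0.0682 without WT replicate 4. The differences of RFC1, RFC3 and RFC4 were 0.13, 0.05 and 0.02.

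**Figure D3:**
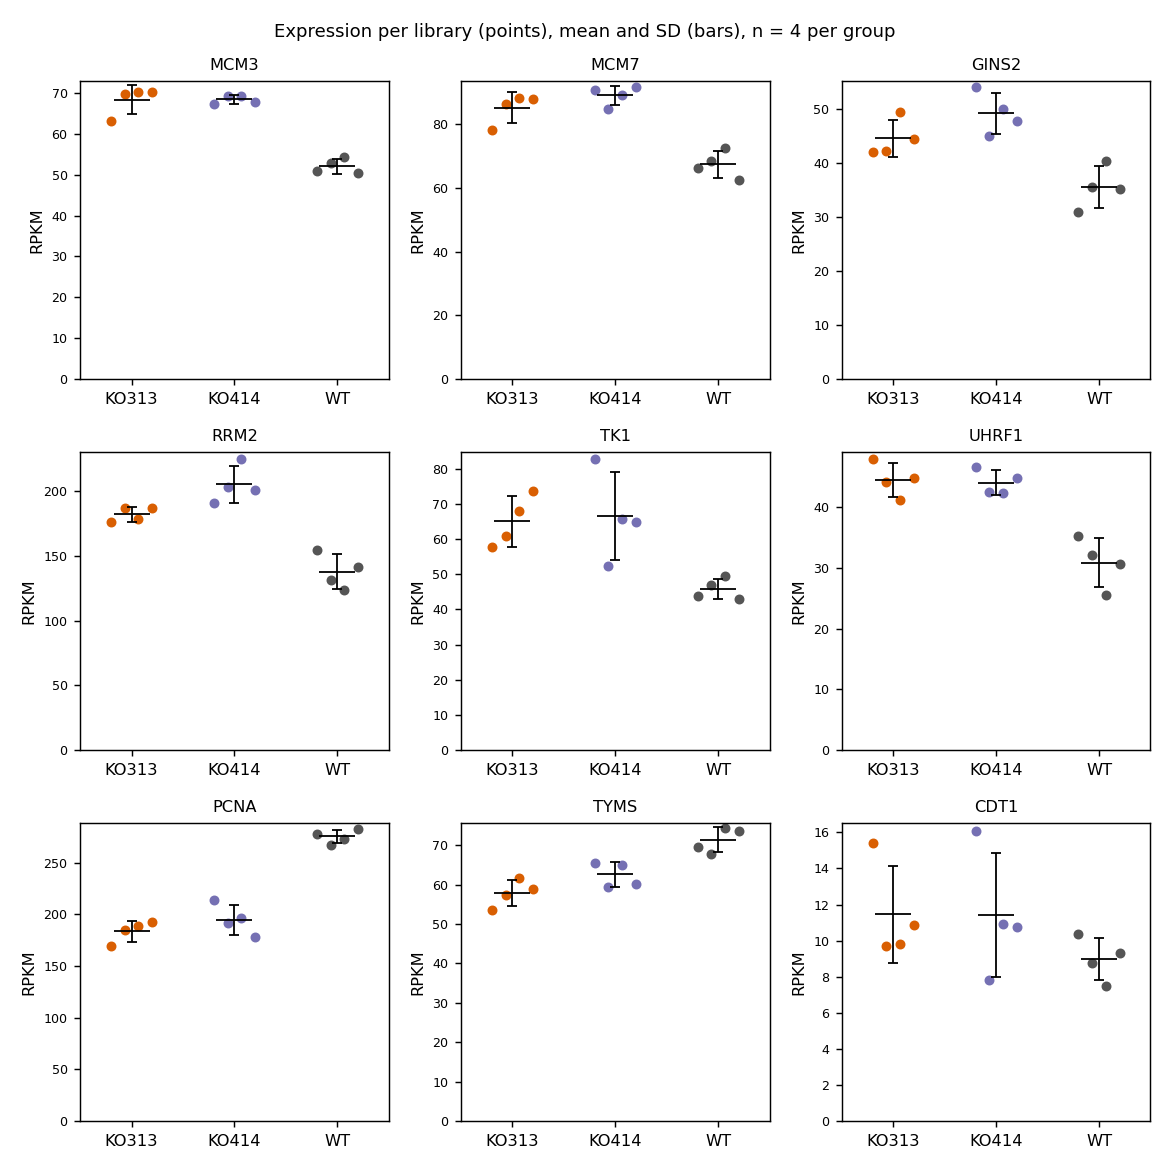
RPKM (y axis, from 0) of 9 members in each library of KO313, KO414 and WT (x axis, points), with group means and SD (black bars, n = 4 each). MCM3, MCM7, GINS2, RRM2, TK1 and UHRF1 are above WT in all 8 p53 KO libraries, PCNA and TYMS are below WT in all 8, and CDT1 is high in 1 library of each clone.

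Of the 5 members that coat single-stranded DNA and finish Okazaki fragments, FEN1 alone passed. FEN1, the nuclease that trims the flaps of Okazaki fragments, had 49.9, 54.5, 59.3 and 57.6 RPKM in KO313 and 64.5, 54.0, 58.6 and 56.5 in KO414, against 48.6, 47.0, 50.5 and 48.8 in WT. KO313 replicate 1 was within the WT range and the other p53 KO libraries were above it (1.17-fold, 0.22 ± 0.06 SE, adjusted p = 0.0115, limma). LIG1, the ligase that joins the fragments, had a lowest value of 13.1, a median of 13.7 and a highest of 15.7 RPKM in p53 KO, against 15.7, 15.5, 15.6 and 14.4 RPKM in WT. The groups overlapped and the difference of -0.11 ± 0.06 SE did not pass (adjusted p = 0.142, limma), but without KO414 replicate 1 the adjusted p was 0.0442. RPA2, a subunit of the single-strand binding protein RPA, had a lowest value of 31.1, a median of 32.6 and a highest of 34.3 RPKM in p53 KO, against 30.5, 28.9, 31.0 and 31.1 RPKM in WT. All p53 KO libraries were above WT by a small margin, and the difference of 0.11 ± 0.04 SE did not pass (adjusted p = 0.0585, limma, or 0.0419 without KO313 replicate 1 and 0.0409 with no filter on low values). The other RPA subunits, RPA1 (0.03) and RPA3 (-0.12), did not pass.

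Among the 5 members for nucleotide supply, RRM2 and TK1 rose and TYMS fell. RRM2, the small subunit of ribonucleotide reductase that is made in S phase, had 176, 187, 179 and 187 RPKM in KO313 and 191, 203, 225 and 201 in KO414, against 155, 132, 124 and 142 in WT. All p53 KO libraries were above the highest WT library (1.40-fold, 0.49 ± 0.07 SE, adjusted p = 0.000184, limma). RRM1, the large subunit, was 61.5 to 67.4 RPKM in p53 KO and 59.6 to 65.6 in WT, and did not pass (0.03). RRM2B, the alternative small subunit that p53 induces, is no member and was set beside them. It had 7.996, 8.68, 7.95 and 8.19 RPKM in KO313 and 6.38, 8.24, 8.86 and 7.99 in KO414, against 60.2, 47.5, 49.8 and 51.4 in WT, a difference of -2.63 ± 0.08 SE (adjusted p = 2.2e-11, limma). The RPKM of RRM2 was thus 21.6 to 22.8 times that of RRM2B in KO313 libraries and 24.7 to 30.0 times in KO414 libraries, against 2.48 to 2.77 times in WT libraries.

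**Figure D4:**
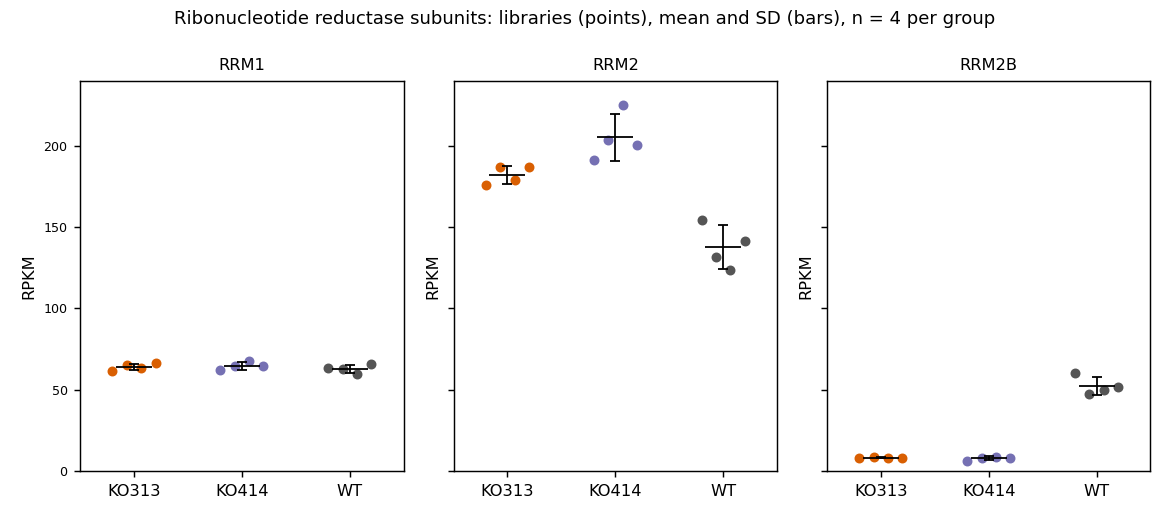
RPKM (y axis, from 0) of the large subunit RRM1 and the small subunits RRM2 and RRM2B in each library of KO313, KO414 and WT (x axis, points), with means and SD (bars, n = 4 each). RRM1 stays at 61.5 to 67.4 RPKM in p53 KO and 59.6 to 65.6 in WT, RRM2 is higher in every p53 KO library, and RRM2B is 6.38 to 8.86 RPKM in p53 KO against 47.5 to 60.2 in WT.

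Thymidylate comes from synthesis and from salvage, and the genes for these routes differed in sign. TK1, the thymidine kinase of the salvage route, had 57.8, 60.7, 68.0 and 73.6 RPKM in KO313 and 82.8, 52.4, 65.8 and 64.9 in KO414, against 43.9, 46.8, 49.4 and 43.0 in WT. The p53 KO libraries were spread widely but all lay above WT (1.44-fold, 0.51 ± 0.10 SE, adjusted p = 0.00161, limma). TYMS, the thymidylate synthase, had 53.6, 57.2, 61.8 and 58.9 RPKM in KO313 and 65.5, 59.5, 64.9 and 60.2 in KO414, against 69.6, 67.9, 74.5 and 73.7 in WT. Every p53 KO library was below WT, with a ratio of means of 0.843 (-0.25 ± 0.05 SE, adjusted p = 0.00369, limma). DUT, the dUTPase that keeps uracil out of DNA, did not pass (0.15).

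Chromatin is rebuilt behind the fork, and 3 of the 4 members in this role rose. UHRF1, which binds hemimethylated DNA and brings DNMT1 to it, had 48.0, 44.2, 41.2 and 44.8 RPKM in KO313 and 46.7, 42.5, 42.3 and 44.9 in KO414, against 35.2, 32.1, 25.5 and 30.6 in WT. The lowest p53 KO library was above the highest WT library, and the difference was the largest rise on the log2 scale among the members (1.44-fold, 0.52 ± 0.07 SE, adjusted p = 9.6e-05, limma). DNMT1, the maintenance DNA methyltransferase, had a lowest value of 26.6, a median of 30.0 and a highest of 31.1 RPKM in p53 KO, against 26.2, 25.5, 22.1 and 23.8 RPKM in WT, close to each other but without overlap (1.21-fold, 0.27 ± 0.06 SE, adjusted p = 0.00308, limma). CHAF1B, a subunit of the histone chaperone CAF-1, had a lowest value of 16.4, a median of 17.6 and a highest of 18.5 RPKM in p53 KO, against 16.3, 16.0, 15.6 and 15.7 RPKM in WT. It had the smallest of the called rises (1.11-fold, 0.14 ± 0.04 SE, adjusted p = 0.0114, limma), and its partner in CAF-1, CHAF1A, did not pass (0.01).

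Of the 23 members that did not pass, 18 had differences above 0. Leaving aside CDT1 and POLD1, the 95% intervals of the other 21 lay between −0.29 (RPA3) and 0.31 (DUT) on the log2 scale, which is the precision these libraries gave. By level, RRM2 (194 RPKM) and PCNA (189) led in p53 KO with overlapping libraries, followed by MCM7 (87.2). In WT, PCNA led at 275 RPKM without overlap, followed by RRM2 (138), TYMS (71.4) and MCM7 (67.5), of which the TYMS and MCM7 libraries overlapped. In every library 42 of the 52 members had at least 10 RPKM.

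The next question was whether the clones gave the same picture. Both were set against the same WT libraries, so their values are not independent of each other. In KO313, 19 members rose and 2 fell (10.8% and 10.7% of all genes were called higher and lower), with a median difference of 0.16. In KO414, 25 rose and 2 fell (15.2% and 14.6% of all genes), with a median of 0.19. PCNA and TYMS were the members that fell in each clone, PCNA by 0.58 on the log2 scale in KO313 and by 0.50 in KO414. The call of TYMS in KO414 (difference -0.19 ± 0.06 SE, adjusted p = 0.0216, limma) was lost without KO414 replicate 2 (adjusted p = 0.0560) or 4 (0.0646), without WT replicate 3 (0.0566) or 4 (0.0649), and with libraries shifted to 1 median (0.0525, all limma). In KO313, the call of POLE was lost without KO313 replicate 2 (adjusted p = 0.0565) and without WT replicate 1 (0.05003) or 4 (0.0677, all limma). In KO414, the limma call of ORC6 was lost without KO414 replicate 3 (0.0723) or 4 (0.0510) and without WT replicate 2 (0.0732), and that of CHAF1B without KO414 replicate 4 (0.0507) and with quantile normalization (0.0507). Other members crossed the threshold the other way. Without KO313 replicate 1, RFC2, RFC5, FEN1 and CHAF1B passed in KO313 (adjusted p = 0.0165, 0.0120, 0.0249 and 0.0226, limma), and RFC5 passed in KO414 (0.0247). Without KO414 replicate 1 the same 4 genes passed in KO313 (adjusted p = 0.0220, 0.0412, 0.0281 and 0.0320, limma), as RFC2 did without KO414 replicate 2 (0.0493), and in KO414 RFC5 was called higher (0.0186) and GMNN (0.0411) and LIG1 (0.0269) lower. Called higher in both clones were 18 members, in KO414 alone ORC6, MCM6, CDC45, PRIM1, RFC2, FEN1 and CHAF1B, in KO313 alone CDC7, and in neither clone RFC5.

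Set against each other, KO414 and KO313 gave no call by limma in any member, where 3.36% of all genes were called. At an unadjusted p under 0.05 there were 3 members, against 11.5% of all genes. These were CDC6 (KO414 minus KO313 0.20 ± 0.06 SE, adjusted p = 0.0969, limma), MCM6 (0.17 ± 0.05 SE) and RRM2 (0.17 ± 0.07 SE). The median 95% interval of a member reached 0.14 to either side on the log2 scale. For 47 of the 52 members the whole interval lay within 0.3 of 0, and the widest were those of CDT1 (0.41 to either side) and POLD1 (0.38). The calls made in only 1 clone therefore do not mark a tested difference between the clones.

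Library by library, the median member was 0.11 to 0.24 above its WT mean on the log2 scale in the 8 p53 KO libraries, and −0.02 to 0.02 from it in the WT libraries. Summed over all members the level was 1671 to 1857 RPKM in p53 KO and 1602 to 1662 in WT. Without PCNA the sums were 1502 to 1660 RPKM in p53 KO and 1334 to 1384 in WT, and on both sums the groups did not overlap. Genes near the machinery were read from lists that hold none of the members. Of 40 other replication genes, 18 rose and none fell in p53 KO with the clones combined, with a median difference of 0.17. Over all genes, 15.6% were called higher and 14.0% lower. In SLBP, which binds histone mRNA in S phase and was named after its values were seen, the clones lay on opposite sides of WT. It averaged 24.2 ± 1.30 RPKM in KO414 and 46.6 ± 1.56 in KO313, against 38.2 ± 1.36 in WT (SD, n = 4 each). It was called lower in KO414 (-0.65 ± 0.05 SE, adjusted p = 6.6e-07, limma) and higher in KO313 (0.28 ± 0.05 SE, adjusted p = 0.00122, limma). Of the 40, the 3 with the smallest p in p53 KO were CDC25A (1.48-fold, 0.55 ± 0.05 SE), the phosphatase that activates CDK2, DTL (1.41-fold, 0.48 ± 0.06 SE), the ubiquitin ligase adaptor that removes CDT1 in S phase, and CCNE1 (1.50-fold, 0.56 ± 0.08 SE), cyclin E1. Of 18 genes of mitosis, a later phase of the cell cycle, 8 rose and none fell (median 0.17). MKI67, the proliferation marker Ki-67, was 14.5 to 30.5 RPKM in p53 KO and 15.1 to 20.9 in WT and did not pass (0.38 ± 0.16 SE, adjusted p = 0.0809, limma). The mitotic sums were 615 to 734 RPKM in p53 KO and 569 to 596 in WT, and their part in the result of the machinery was not tested.

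**Figure D5:**
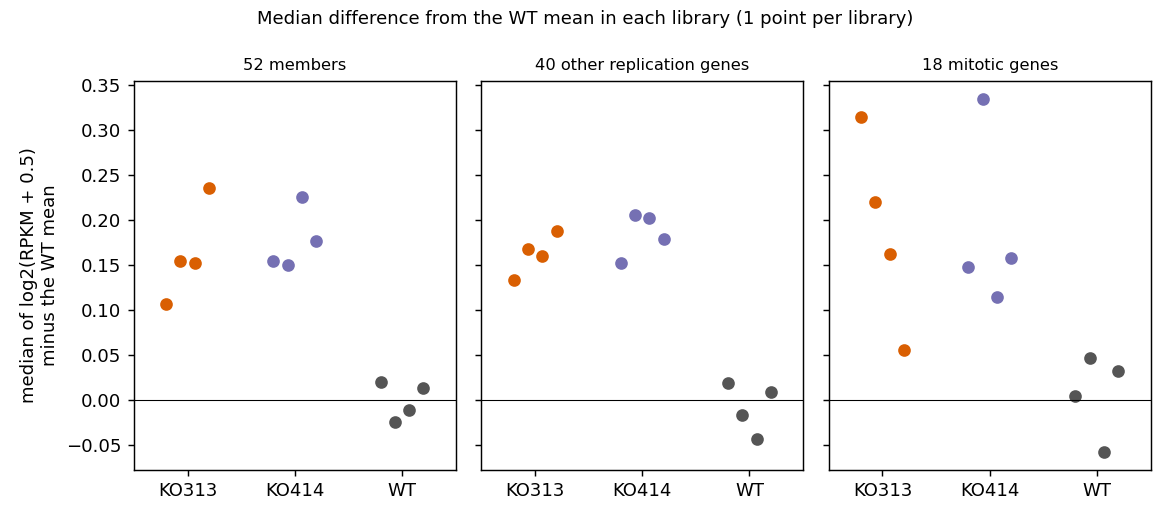
Median over genes of log2(RPKM + 0.5) minus the WT mean of each gene (y axis), 1 point per library of KO313, KO414 and WT (x axis), for the 52 members, 40 other replication genes and 18 mitotic genes. The members lie at 0.11 to 0.24 in p53 KO libraries and −0.02 to 0.02 in WT libraries, and the mitotic genes are the most scattered of the 3 sets.

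In a list of 16 genes, made up of upstream regulators of the machinery and RRM2B, 6 rose (E2F1, E2F2, E2F4, E2F8, TFDP1 and MYBL2) and 3 fell (CDKN1A, RBL2 and RRM2B). Over all genes, 15.6% were called higher and 14.0% lower. In KO313, E2F8 and RBL2 did not pass (adjusted p = 0.0738 and 0.0640, limma). In KO414, E2F7 and RB1 were called lower as well (adjusted p = 0.0170 and 0.0453, limma). E2F1, an activator of replication genes, had 10.3, 10.7, 11.4 and 12.5 RPKM in KO313 and 14.4, 10.8, 11.7 and 12.5 in KO414, against 6.73, 7.46, 7.30 and 7.60 in WT. All p53 KO libraries were above WT, and its difference of 0.66 ± 0.08 SE (adjusted p = 3.1e-05, limma) was larger than that of any member. CDKN1A fell by 3.00 on the log2 scale (SE 0.09, adjusted p = 2.4e-11, limma).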

How the data were processed

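RNA-seq of 12 MCF10A libraries (KO313, KO414 and WT, n = 4 each) was analysed from 1 table in which the authors deposited RPKM values, with 22328 gene symbols. Per the submitters' processing notes reads were trimmed with Trimmomatic and the genome build was hg19. The aligner, counter, annotation and use of strand were not given in the sources used here, so reads of overlapping, antisense or near-identical genes cannot be told apart. The labels name an mRNA kit, the methods rRNA removal from total RNA, and the study describes its RNA-seq as biased to RNA 3′ ends.

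Every RPKM value of a member equals, within 0.0001, a whole number over the length of the gene and the total of the library. The totals differ by 0.123%, so these numbers were not taken as read counts and the unit stayed RPKM. The study tested read counts with both clones combined (FDR 0.05, fold 2), which this table does not allow. Here limma 3.58.1 (R 4.3.3) with an intensity trend was run on log2(RPKM + 0.5), a scale that understates changes of low genes, for genes that reached 0.5 RPKM in 4 or more libraries. Tests were two-sided with Benjamini-Hochberg adjustment over all genes tested, and calls were made at an adjusted p under 0.05. The 8 p53 KO libraries were compared with WT in a model of 2 groups, and the clones in a model of 3 groups. Folds are ratios of mean RPKM. Levels of different genes set side by side depend on the length used for each, and a bias to RNA 3′ ends was not corrected here.

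Of the symbols, 26 are dates made by spreadsheet software, and 4 repeated ones were left out. The members and lists were chosen with earlier results of these data known. Values per library, or the lowest, median and highest of the 8 p53 KO libraries, are given for up to 3 members per role with the smallest p, for members called lower, and for PCNA, RRM2, CDC6, CDT1 and GMNN. RRM2B, CDKN1A, E2F1, MKI67 and up to 3 other replication genes were named beside them. POLD1, RRM1, KRT5, KRT6A, KRT17, LAMB3 and CD14 were named after their values were seen. Some genes of the lists set beside the machinery are not reported here. Alternatives were pseudocounts of 0.1 and 1, no filter and a filter at 1 RPKM, quantile and median scaling, no intensity trend, the replicate number as a block, the mean of both clone effects, each library left out and, added after seeing the data, the 3 libraries of number 1 left out. Tables and plots were made in Python 3.11.15 with pandas 2.3.3, numpy 2.4.6 and matplotlib 3.10.9.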

Additional observations from a re-analysis of the deposited data

Results flagged for a closer look

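In groups of 4 libraries, 11 of the 156 groups of member values had 1 library far from the other 3 by Dixon's test, where chance alone gives about 1 in 20. In KO313, replicate 1 was low for CDC6 (40.1 RPKM, the others 46.3 to 47.3), MCM3 (63.1, the others 69.8 to 70.3) and GINS3 (13.6, the others 15.1 to 15.4), and replicate 3 was low for DNMT1 (26.9, the others 30.3 to 30.6). In KO414, replicate 1 was high for GMNN (45.0, the others 38.4 to 39.0) and GINS3 (16.2, the others 14.7 to 14.9) and low for MCM4 (50.5, the others 58.3 to 59.6). In WT the values apart were ORC5 in replicate 4 (15.1), POLA2 in replicate 3 (15.9), RPA1 in replicate 2 (26.3) and LIG1 in replicate 4 (14.4). Of the 11, 6 fall in KO313 replicate 1 or KO414 replicate 1.

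Between the clones, limma called 3 genes of the lists set beside the machinery and no member. SLBP, the histone mRNA binding protein that acts in S phase, had a KO414 minus KO313 difference of −0.93 (means of 24.2 RPKM in KO414 and 46.6 in KO313, where WT had 38.2, adjusted p = 1.1e-07). E2F2 differed by 0.45 (5.93 RPKM in KO414 and 4.18 in KO313, adjusted p = 0.00392) and EPCAM by 0.30 (59.0 RPKM in KO414 and 47.9 in KO313, adjusted p = 0.00536).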

How the results depend on the processing

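For p53 KO against WT, 23 to 31 members were called with each library left out (fewest without WT replicate 2, most without KO414 replicate 1) and 27 to 30 under the other alternatives, against 29 in the reported fit. With the 3 libraries of number 1 left out, 27 rose and 2 fell. For KO313 the counts were 20 to 26 and 21 to 27 (reported 21), and for KO414 23 to 32 and 25 to 30 (reported 27). Between KO414 and KO313 no member was called under any of these alternatives. The count over all genes between KO414 and KO313 was 411, 701 with no filter on low values, and 270 to 515 with each library left out (270 without KO313 replicate 2, 273 without KO313 replicate 4). The difference of GMNN between KO313 and WT, −0.006168 and not called, ranged from −0.0326 to 0.023 with each library left out. Over the named members and these alternatives, 585 values for p53 KO against WT stayed on their side of the threshold, 4 crossed to a call and 5 lost it. Most named members were picked for the smallest p in their role, which favors stable calls. The other members were not followed singly, and some of their calls were lost without WT replicate 2. The causes of these shifts were not tested.

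The replicate numbers paired the libraries only in part. The highest correlations between groups were of same-numbered libraries, 0.514 for KO313 and WT replicate 3 and 0.505 for KO313 and KO414 replicate 2. The deviations of same-numbered libraries from their group means correlated at −0.19 to 0.51, with 6 of the 12 pairs over 0.1, and not every library correlated best with its own number. With the replicate block, 28 members were called in p53 KO (26 higher, 2 lower) and 3466 genes in all, 22 members in KO313, 29 in KO414 and none between the clones (355 genes in all). CDT1 passed with the replicate block in p53 KO (difference 0.31, adjusted p = 0.0262, limma), and RFC5 in KO414 (0.17, adjusted p = 0.0413, limma).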
